A study of Mus musculus with 36 samples.

Results

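Lipoxin A4 (LXA4), a lipid mediator made from arachidonic acid as inflammation resolves, was set against its ethanol vehicle in the kidney cortex of diabetic mice, and 56 of 15,726 genes (0.356%) passed the test at an adjusted p under 0.05. The comparison takes 12 of the 36 RNA-seq libraries of the study by their labels, 6 from LXA4-treated and 6 from vehicle-treated diabetic mice, and covers every gene tested. All mice of all groups were male and carried ApoE−/− on a C57BL/6 background, which makes them prone to atherosclerosis, so the controls lack Apoe too. The diabetic mice had been given streptozotocin, a toxin of pancreatic beta cells, intraperitoneally at 55 mg/kg on each of 5 days from 6 weeks of age. LXA4 was given intraperitoneally at 5 µg/kg, and the vehicle was 0.1% ethanol, both 2 times a week. The labels outline an intervention arm followed for 16 weeks, with dosing in weeks 10 to 16, but do not tie these libraries to it by name. Nondiabetic mice on LXA4 or vehicle, and mice on 1.7 µg/kg of the synthetic analog Benzo-LXA4, also had 6 libraries a group. Nothing in the labels says that each library is a separate mouse, so the p-values measure the spread between these libraries, which may be technical in part.

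As background, lipoxins are formed by lipoxygenases, chiefly 5-lipoxygenase together with a 12- or 15-lipoxygenase, and act on the formyl peptide receptor FPR2. They limit neutrophil entry, promote clearance of dying cells by macrophages, and act on mesangial and epithelial cells of the kidney. The title of the study names Egr-1, a zinc-finger transcription factor that growth factors, stress and high glucose switch on within minutes and that drives genes of growth, inflammation and matrix. The question is therefore which genes LXA4 moved in a cortex that was already diabetic.

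The tissue carried the markers of kidney cortex. Lrp2 and Slc34a1 of the proximal tubule lay between 3194 and 5352 and between 1746 and 4272 CPM (counts relative to the scaled library total) over the 12 libraries, Umod of the loop of Henle between 815 and 2754 CPM, and Nphs1 of podocytes between 13.7 and 29.3 CPM. Total counts of the LXA4 libraries lay between 8,896,193 and 35,906,294, and those of the vehicle libraries between 18,009,386 and 33,541,143. LXA4 replicate 6 was the shallowest library and stood apart: genes of ribosomal and other structural RNAs took 56.9% of its counts and mitochondrial ribosomal RNA 0.394%. Structural RNA took at most 6.83% of any of the 34 libraries left when nondiabetic vehicle replicate 3, at 17.7%, is set aside with it. The whole comparison was therefore repeated without LXA4 replicate 6, and the second value is given for called genes and gene lists where the results turn on it. Values with no second figure are from all 12 libraries. In this bulk tissue, fewer cells of a type and less RNA per cell cannot be told apart.

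More of the called genes were higher than lower with LXA4. Of the 56 genes called (adjusted p under 0.05, edgeR's quasi-likelihood test with Benjamini-Hochberg adjustment over all genes), 49 rose (0.312% of all genes) and 7 fell (0.0445%). Most rises were small: the median log2 difference of LXA4 minus vehicle was 0.45 among the 49, and 37 of them were under 0.60. At an unadjusted p under 0.05 there were 2468 genes (15.7%), of which 1515 were higher (9.63%) and 953 lower (6.06%). With LXA4 replicate 6 left out, the higher and lower genes at this level numbered 910 (5.79%) and 852 (5.42%), which is nearly even. In 29 of the 56 genes the 6 LXA4 libraries did not overlap the 6 vehicle libraries, 26 of them higher and 3 lower. Over all genes, 0.458% had every LXA4 library above every vehicle library and 0.362% had every one below. The median over all genes was 0.01. In 51 of the 56 genes all 6 LXA4 libraries were on the same side of the vehicle mean as the group, and in 5 genes 5 of 6 were. The genes were chosen by a test on these libraries, which favours such agreement, and the share over all genes was not computed.

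Without LXA4 replicate 6 the count was 43 genes (0.273%), with 39 higher (0.248%) and 4 lower (0.0254%). Of the 56 genes, 30 were called again, 28 higher and 2 lower, and all 56 kept the sign of their difference. In 22 of the 49 genes that rose, replicate 6 was the highest LXA4 library. The plot of the differences with and without this library shows how far each gene moved.

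**Figure D1:**
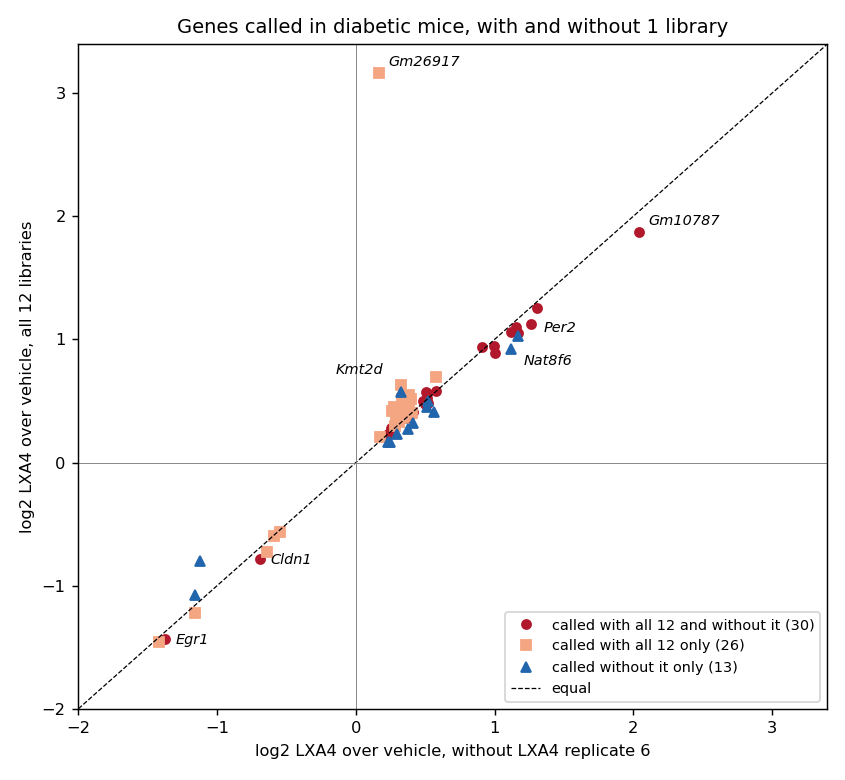
Log2 difference of LXA4 minus vehicle in diabetic mice, with LXA4 replicate 6 (vertical axis) and without it (horizontal axis), for each gene called either way. The fit held all 36 libraries, or all but that replicate. The dashed line marks equal values. Gm26917 drops to 0.17 without the library, whereas Egr1 and Per2 stay close to the line.

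The calls also rested on single vehicle libraries. Without vehicle replicate 2 no gene was called (adjusted p of the 56 genes between 0.0531 and 0.129), while 2173 genes still had an unadjusted p under 0.05, and without vehicle replicate 3 Zbtb40 alone was called. Without vehicle replicate 5 the count was 19, without replicate 6 it was 36, without replicate 1 it was 52 and without replicate 4 it was 49. Leaving out LXA4 replicate 2 gave 16 genes, replicate 4 gave 30, replicate 1 gave 63, replicate 3 gave 72 and replicate 5 gave 88. All 36 libraries share 1 fit, and leaving out nondiabetic libraries moved the count too, with 29 genes without nondiabetic LXA4 replicate 3 and 33 without nondiabetic vehicle replicate 2. Of the 56 genes, 10 were kept whichever 1 of the 12 diabetic LXA4 and vehicle libraries was left out, other than vehicle replicate 2 or 3. DESeq2 called 221 genes, 55 of the 56 among them, and limma's voom with quality weights called 172, with 48 of the 56. A fit of these 12 libraries alone called only Egr1, which was lower, and 913 genes had an unadjusted p under 0.05 there.

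Egr1 (ENSMUSG00000038418, chromosome 18, 34,859,823 to 34,864,984 on GRCm38) fell with LXA4. Its lowest, median and highest levels were 1.65, 2.57 and 3.71 CPM with LXA4, against 6.71, 7.32 and 9.06 CPM with vehicle. The groups did not overlap: the highest LXA4 library was well under the lowest vehicle library. LXA4 minus vehicle gave a log2 difference of −1.43, with its 95% interval between −2.03 and −0.83 (adjusted p = 0.0242). Without LXA4 replicate 6, which had the lowest level of all, it was −1.38 (adjusted p = 0.0373). The adjusted p was above the threshold without vehicle replicate 2 (0.0531), 3 (0.0722) or 5 (0.0505), while the difference stayed between −1.53 and −1.37 whichever of these 12 was dropped.

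Of the other genes of this family, Egr2 and Egr3 were not analysed here, and the corepressors that bind EGR proteins did not pass the test. Nab1 had 20.5, 45.4 and 48.0 CPM with LXA4 as lowest, median and highest, against 44.4, 46.1 and 48.6 CPM with vehicle (log2 −0.14, adjusted p = 0.498). Nab2 had 7.79, 8.46 and 15.8 CPM with LXA4 against 7.62, 8.88 and 9.40 CPM with vehicle (log2 0.10, adjusted p = 0.777), and its sign turned to −0.05 without LXA4 replicate 6. So Egr1 was low while its corepressors overlapped between the groups.

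Among 33 measured immediate early genes, which cells switch on rapidly after a stimulus, 1 was called and it rose. Sik1, a salt-inducible kinase that restrains CREB coactivators, had 57.6, 74.8 and 84.6 CPM with LXA4, against 46.6, 60.3 and 62.6 CPM with vehicle. The groups overlapped, and the log2 difference of 0.37 (adjusted p = 0.035) was 0.35 without LXA4 replicate 6 (adjusted p = 0.0618). At an unadjusted p under 0.05 the list had 5 members higher and 2 lower, against 9.63% and 6.06% of all genes; the lower ones were Fos at −1.29 and Nr4a1 at −0.88. Fos encodes a subunit of AP-1, and Nr4a1 an orphan nuclear receptor. Neither passed after adjustment, and their values without LXA4 replicate 6 were −1.28 and −0.91. Klf2, a transcription factor of endothelium, stood at 0.78 (adjusted p = 0.086). Jund at 1.03 and Ier5 at 1.02 had values of 0.05 and −0.25 without that library. The median over the list was 0.16 with all libraries and 0.05 without it.

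Of 29 genes often described as EGR1 targets, none was called. Their median difference was 0.00 (−0.01 without LXA4 replicate 6), and 1 was higher (9.63% of all genes were) and 3 lower (6.06% of all genes) at an unadjusted p under 0.05. Among the lower ones were Mmp14, a membrane collagenase (−0.41, adjusted p = 0.16), and Il1b, the cytokine interleukin-1 beta (−1.09, adjusted p = 0.235). The higher one, Col1a2 (1.29), had 493 CPM in LXA4 replicate 6 against a group median of 46.6 CPM, and turned to −0.05 without that library.

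Promoters of called genes were searched for EGR sites, since EGR1 binds GC-rich elements near start sites. RefSeq promoters on GRCm38.p6, from 250 bases before to 50 bases after the start, matched 11,415 of the genes tested (14,595 promoters) and 41 of the called genes (64 promoters). The letters GCGGGGGCG, on either strand, were in 4 of the 64 promoters (6.25%) and in 5.04% of all promoters, and GCGTGGGCG in 0 of the 64 and in 1.12% of all. The 4 genes were Cbfa2t3, Pitpnm2, Ptpn1 and Rffl, all higher with LXA4. The promoters of Ptpn1 (chr2:167932077-167932376, plus strand) and Cbfa2t3 (chr8:122678126-122678425, minus strand) are shown because they hold this site in genes that rose where Egr1 fell; capitals mark the site, which in Ptpn1 reads on the opposite strand.
Ptpn1: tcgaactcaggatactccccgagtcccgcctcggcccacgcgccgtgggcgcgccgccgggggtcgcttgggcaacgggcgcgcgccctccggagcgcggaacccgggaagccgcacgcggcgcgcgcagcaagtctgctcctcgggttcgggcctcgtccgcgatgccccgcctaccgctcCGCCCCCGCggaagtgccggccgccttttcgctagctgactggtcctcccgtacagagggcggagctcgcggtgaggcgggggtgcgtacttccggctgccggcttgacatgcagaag
Cbfa2t3: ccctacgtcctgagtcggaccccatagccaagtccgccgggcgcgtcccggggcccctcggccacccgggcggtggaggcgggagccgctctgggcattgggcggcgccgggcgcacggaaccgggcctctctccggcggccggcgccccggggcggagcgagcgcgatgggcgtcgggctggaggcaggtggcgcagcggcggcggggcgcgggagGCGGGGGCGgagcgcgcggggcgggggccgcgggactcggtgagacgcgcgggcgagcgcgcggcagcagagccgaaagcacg
Ptpn1 encodes the tyrosine phosphatase PTP1B, which dephosphorylates the insulin receptor, and had 64.2, 68.7 and 83.4 CPM with LXA4, against 45.9, 49.9 and 68.0 CPM with vehicle (log2 0.39, adjusted p = 0.0215). Cbfa2t3, a transcriptional corepressor of the ETO family, had 18.4, 24.4 and 27.4 CPM with LXA4, against 13.8, 15.7 and 19.6 CPM with vehicle (log2 0.53, adjusted p = 0.0282). In both genes 1 or more LXA4 libraries lay within the vehicle range.

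**Figure D2:**
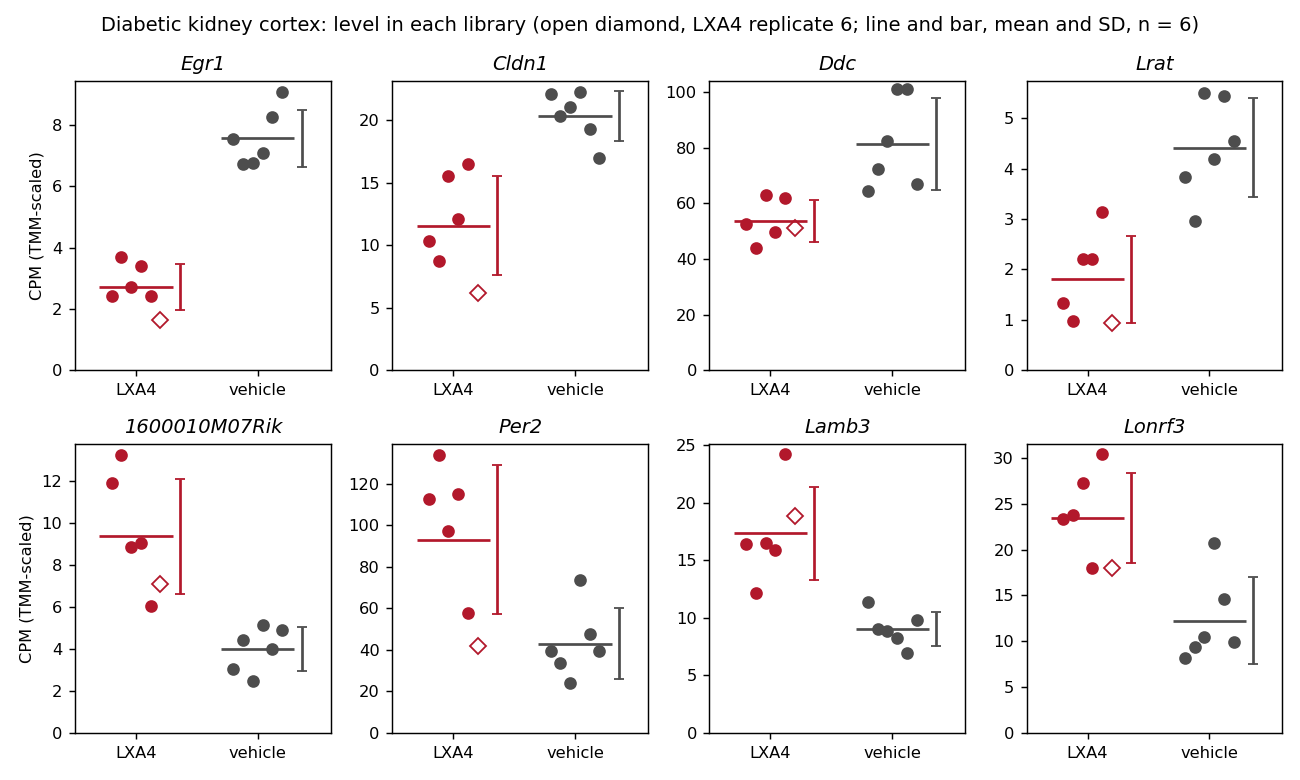
Level (TMM-scaled CPM) of 8 genes in each library of LXA4-treated (red, left) and vehicle-treated (grey, right) diabetic mice; lines and bars give the mean and SD of 6 libraries, and the open diamond is LXA4 replicate 6. The 6 LXA4 libraries lie below all vehicle libraries for Egr1, Cldn1 and Ddc and above them for 1600010M07Rik and Lamb3, while Lrat, Per2 and Lonrf3 overlap.

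Genes of the circadian clock were among those that rose, with Per2 of the core loop and Lonrf3 of its outputs. The clock is a feedback loop in which CLOCK and ARNTL (BMAL1) activate Per and Cry genes at E-boxes, PER and CRY proteins repress them, and REV-ERB receptors repress Arntl; in kidney it paces transport and metabolism. Of 15 measured core genes 2 were called, both higher and Per2 among them, against 0.312% of all genes higher. Of 15 measured output genes 1 was called, and all 15 had a positive difference (14 without LXA4 replicate 6). Over all 15,726 genes, 8085 had a positive difference (7352 without that library). The median difference was 0.24 in the core list and 0.45 in the output list, against 0.01 over all genes; without LXA4 replicate 6 the medians were 0.29 and 0.44, against −0.01.

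Per2, a core repressor of the clock (ENSMUSG00000055866, chromosome 1, 91,415,982 to 91,459,324), had 41.8, 105 and 134 CPM with LXA4, against 23.8, 39.5 and 73.8 CPM with vehicle. The groups overlapped through LXA4 replicates 5 and 6, at 57.8 and 41.8 CPM, and vehicle replicate 4, at 73.8 CPM. Its log2 difference was 1.12 (0.61 to 1.64, adjusted p = 0.0405) and 1.26 without LXA4 replicate 6 (adjusted p = 0.0194). The call was lost without any 1 of 8 libraries, with a highest adjusted p of 0.134 without vehicle replicate 3.

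Cry1, the partner of PER2 in repression, had 4.72, 10.2 and 15 CPM with LXA4, against 2.91, 3.83 and 10.2 CPM with vehicle, and did not pass (log2 0.99, 0.41 to 1.57, adjusted p = 0.125; 1.09 without LXA4 replicate 6). Nr1d1, which encodes REV-ERBα, a repressor of Arntl, pointed the other way with 18.6, 36.3 and 50.2 CPM with LXA4, against 39.9, 47.3 and 55.4 CPM with vehicle (log2 −0.41, adjusted p = 0.25; −0.43 without replicate 6). Per1, a second period gene, had a log2 difference of 0.44 (adjusted p = 0.36). Arntl itself stood at 0.29 with a 95% interval of −0.61 to 1.19, and Clock at −0.24 (−0.53 to 0.06). Per2 and Cry1 had larger estimated differences than the activators Arntl and Clock, whose intervals included 0. The interval of Arntl also held the estimates of Per2 and Cry1, and the difference between genes was not tested.

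Among output genes, Lonrf3, a RING-finger protein (chromosome X, 36,328,353 to 36,362,341), had 17.9, 23.5 and 30.4 CPM with LXA4, against 8.13, 10.2 and 20.8 CPM with vehicle. LXA4 replicates 4 and 6 lay below the highest vehicle library, replicate 4. The log2 difference was 0.95 (0.51 to 1.39, adjusted p = 0.044), and 1.00 without LXA4 replicate 6 (adjusted p = 0.0438). The call was lost without any 1 of 9 libraries. Its RefSeq promoter (chrX:36328159-36328458, plus strand, GRCm38.p6) is shown because it holds the letters of an E-box, the kind of element at which CLOCK and ARNTL act. Binding at this site was not measured. The capitals mark CACGTG, 45 bases before the RefSeq start. The gene coordinates above, from GENCODE, begin at 36,328,353, which is before this site.
Lonrf3: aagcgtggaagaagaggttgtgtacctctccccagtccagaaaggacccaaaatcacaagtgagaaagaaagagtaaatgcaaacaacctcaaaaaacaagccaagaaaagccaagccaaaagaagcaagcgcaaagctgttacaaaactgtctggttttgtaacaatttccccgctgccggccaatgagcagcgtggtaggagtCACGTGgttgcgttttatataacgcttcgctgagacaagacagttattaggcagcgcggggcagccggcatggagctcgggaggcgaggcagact
The letters CACGTG were in 6 of the 64 promoters of called genes (9.38%) and in 9.30% of all promoters, so the called genes held them about as often as any. The others were Arhgap27, Epb41l1, Txlng and both promoters of Macrod1. The E-box variant CACGTT was in 0 of the 64, against 5.12% of all promoters. The D-box TTATGNAA, bound by DBP, TEF and HLF, was in 2 (3.12%), those of Ddc and Trak1, against 2.22% of all.

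Further output genes had unadjusted p-values under 0.05 without passing the adjustment. They were Usp2, a deubiquitinase (0.51, adjusted p = 0.124), Tsc22d3, the glucocorticoid-induced leucine zipper GILZ (0.69, adjusted p = 0.143), Tef, a D-box factor (0.43, adjusted p = 0.159), Wee1, a mitotic kinase (0.45, adjusted p = 0.195), and Noct, a deadenylase-like phosphatase (0.75). Dbp, the best known D-box output gene, had 0.50 with a 95% interval of −0.29 to 1.29. Cipc, an inhibitor of CLOCK, had 32.8, 46.8 and 49.1 CPM with LXA4 against 35.6, 37.1 and 42.6 CPM with vehicle; it was called without LXA4 replicate 6 (0.30, adjusted p = 0.0373) but not with it (0.24, adjusted p = 0.166). The hour at which the mice were killed is not in the labels, so its part in these values was not tested. Among 18 glucocorticoid-responsive genes, whose hormone follows the day, none was called and the median was 0.20 (0.06 without LXA4 replicate 6).

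**Figure D3:**
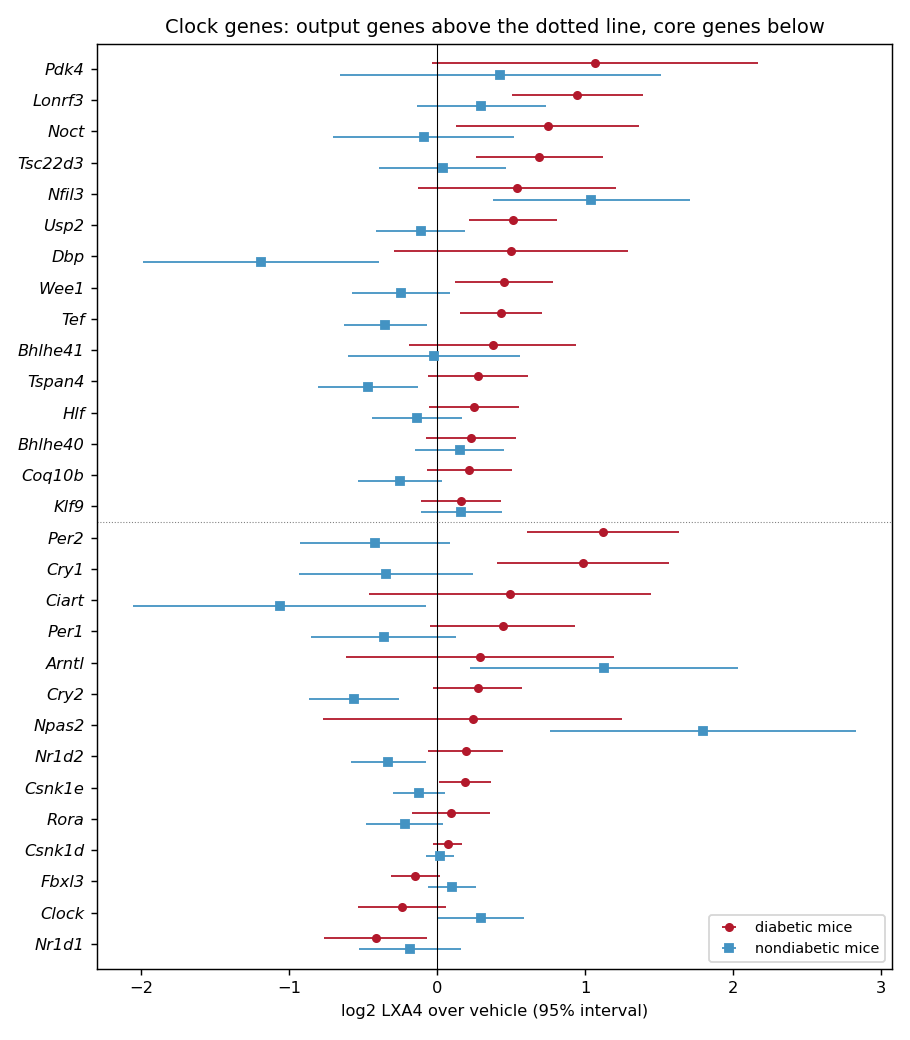
Log2 difference of LXA4 minus vehicle with its 95% interval for 15 clock output genes (above the dotted line) and 14 core clock genes (below it) in diabetic (red circles) and nondiabetic mice (blue squares). All 15 output genes and 11 of these 14 core genes lie to the right of 0 in diabetic mice, most of them with intervals that include 0.

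The antisense transcript 1600010M07Rik also rose. It had 6.04, 8.96 and 13.3 CPM with LXA4, against 2.45, 4.21 and 5.13 CPM with vehicle, and the groups did not overlap (log2 1.25, 0.78 to 1.73, adjusted p = 0.0176). It lies on chromosome 7 at 109,998,376 to 110,151,202, on the strand opposite Wee1, Ipo7 and Zfp143. The strand setting of the counting is not given, so reads of these genes and of the antisense transcript cannot be told apart. Fcnaos (1.10, adjusted p = 0.0472) and 4732471J01Rik (0.49, adjusted p = 0.0341) are annotated as antisense too, opposite Rabl6 and Tmem141 and opposite Lipe and Ceacam1, and carry the same limit.

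Among cell junction and basement membrane genes, Cldn1 fell and Lamb3 rose. Cldn1 (ENSMUSG00000022512, chromosome 16, 26,356,642 to 26,371,841) encodes claudin-1, a tight junction protein found in the glomerular parietal epithelium. It had 6.14, 11.2 and 16.4 CPM with LXA4, against 17.0, 20.7 and 22.3 CPM with vehicle, and no library of either group crossed into the other. The log2 difference was −0.78 (−1.10 to −0.47, adjusted p = 0.0197) and −0.69 without LXA4 replicate 6 (adjusted p = 0.0291). Its adjusted p was 0.0544 without LXA4 replicate 2, 0.0531 without vehicle replicate 2 and 0.0722 without vehicle replicate 3. Cldn1 was the only called gene of 20 claudins and tight junction genes, whose median was 0.04. Cldn16, a claudin of the thick ascending limb that carries magnesium, had −0.53 (adjusted p = 0.125), Cldn2, of the proximal tubule, had −0.30, and Tjp3, a scaffold, had 0.46 (adjusted p = 0.137).

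Lamb3, the beta-3 chain of laminin-332 in epithelial basement membranes (chromosome 1, 193,207,699 to 193,343,878), had 12.1, 16.4 and 24.3 CPM with LXA4, against 6.95, 8.95 and 11.4 CPM with vehicle. The groups did not overlap. The log2 difference was 0.94 (0.56 to 1.31, adjusted p = 0.0197) and 0.91 without LXA4 replicate 6 (adjusted p = 0.0295). Its adjusted p was above the threshold without vehicle replicate 2 (0.0531), 3 (0.0722) or 5 (0.0505). The gene overlaps Hsd11b1 and G0s2 on the opposite strand. Lama3, another chain of laminin-332, stood at 0.01. Of 11 laminin genes Lamb3 alone was called; Lamb2 stood at 0.96 with all libraries and at 0.16 without LXA4 replicate 6, where it reached 246 CPM against a group median of 41.5 CPM.

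Called genes outside the lists are taken here by their known roles, a grouping made after their values were seen and not tested. Dlg5, a polarity scaffold, had 114, 121 and 158 CPM with LXA4, against 88.7, 99.4 and 104 CPM with vehicle, without overlap (log2 0.38, adjusted p = 0.0176). Plekha7, a protein of adherens junctions, had 333, 358 and 608 CPM with LXA4 against 270, 294 and 348 CPM with vehicle (log2 0.42, adjusted p = 0.0472; 0.26 and adjusted p = 0.0843 without LXA4 replicate 6). Tns1, which links integrins to actin, stood at 0.42 (adjusted p = 0.0472), Epb41l1, a membrane skeleton protein, at 0.36 (adjusted p = 0.0472), and Mpp4, a membrane scaffold of the MAGUK family, at 0.89 (adjusted p = 0.0367). Without LXA4 replicate 6, Dlg5 (0.30) and Mpp4 (1.01) were still called, and Plekha7, Tns1 (0.33) and Epb41l1 (0.34) were not.

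Some of the called genes bind the cytoskeleton or carry cargo along it. Ablim1, an actin-binding LIM protein, had 354, 374 and 420 CPM with LXA4, against 289, 297 and 311 CPM with vehicle, without overlap (log2 0.37, adjusted p = 0.0176). Myo10, the filopodial myosin X, had 301, 336 and 404 CPM with LXA4 against 234, 260 and 303 CPM with vehicle (log2 0.38, adjusted p = 0.0176), with 1 LXA4 library inside the vehicle range. Trak1, which couples mitochondria to kinesin, had 274, 307 and 342 CPM with LXA4 against 218, 234 and 269 CPM with vehicle (log2 0.36, adjusted p = 0.0187), again without overlap. Slain2, a microtubule growth factor, stood at 0.32 (adjusted p = 0.0215), and Tacc2, a centrosomal protein, at 0.44 (adjusted p = 0.047). The exchange factors for small GTPases Ngef (0.57, adjusted p = 0.0197) and Arhgef10 (0.39, adjusted p = 0.0282) and the GTPase-activating protein Arhgap27 (0.37, adjusted p = 0.0472) rose as well. All of these but Tacc2 and Arhgap27 were called without LXA4 replicate 6.

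Others encode membrane or cilium proteins. Pkd1, which encodes polycystin-1 and is mutated in dominant polycystic kidney disease, had 113, 122 and 160 CPM with LXA4, against 90.8, 95.9 and 107 CPM with vehicle (log2 0.37, adjusted p = 0.0282). Cys1, the cilium protein cystin, had 39.2, 56.3 and 78.6 CPM with LXA4 against 23.2, 33.6 and 43.7 CPM with vehicle (log2 0.69, adjusted p = 0.044). Adra2b, the alpha-2B adrenergic receptor, had 108, 135 and 142 CPM with LXA4 against 83.6, 98.9 and 128 CPM with vehicle (log2 0.40, adjusted p = 0.047). None of these 3 was called without LXA4 replicate 6, with differences of 0.29, 0.58 and 0.40. The Pkd1 groups did not overlap, and those of Cys1 and Adra2b did. Inpp5b, a phosphoinositide phosphatase (0.34, adjusted p = 0.0228), and Pitpnm2, a phosphatidylinositol transfer protein (0.41, adjusted p = 0.0228), were called with and without the library. Unc5b, a netrin receptor, stood at 0.55 (adjusted p = 0.043), and its highest library, LXA4 replicate 6 at 32.6 CPM, lay far above the group median of 17.1 CPM. Grin3a, an NMDA receptor subunit, stood at 1.06 (adjusted p = 0.0244) on low levels, with medians of 2.89 CPM with LXA4 and 1.32 CPM with vehicle.

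Others act on transcription, chromatin or RNA. Zbtb40, a zinc-finger protein, had 39.4, 46.0 and 65.6 CPM with LXA4, against 25.9, 33.4 and 36.9 CPM with vehicle, without overlap (log2 0.58, adjusted p = 0.0176), and it lost its call in only 1 of the 12 fits that left out a library, that without vehicle replicate 2. Srrm2, a splicing scaffold of nuclear speckles, had 396, 411 and 422 CPM with LXA4 against 328, 347 and 380 CPM with vehicle, also without overlap (log2 0.23, adjusted p = 0.0247). Rai1, a chromatin protein, stood at 0.42 (adjusted p = 0.0282), and Zmiz1, a coregulator, at 0.29 (adjusted p = 0.043). Ctif, a translation initiation factor of the nuclear cap-binding complex, stood at 0.41 (adjusted p = 0.0176). Of these, Zbtb40, Srrm2 and Ctif were called without LXA4 replicate 6 and Rai1 and Zmiz1 were not, at 0.38 and 0.28.

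Kmt2d, a histone H3 lysine 4 methyltransferase, had 182, 204 and 477 CPM with LXA4 against 140, 162 and 171 CPM with vehicle. The groups did not overlap, but LXA4 replicate 6 stood far above the others, the next highest library having 215 CPM. The log2 difference was 0.63 (adjusted p = 0.0486), and 0.33 without that library (adjusted p = 0.0661). Over 35 histone lysine methyltransferases and demethylases, Kmt2d was the 1 called, 14 were higher and 2 lower at an unadjusted p under 0.05, against 9.63% and 6.06% of all genes (6 and 1 without LXA4 replicate 6, against 5.79% and 5.42%), and the median was 0.13 with all libraries and 0.08 without it.

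Further rises were those of Catsper2, a sperm ion channel subunit (0.57), Cables1, a substrate of CDK5 (0.50), Fam102a (0.51), Anxa11, an annexin (0.28), Fam169b (0.48), Aim1 (0.33), Macrod1, an ADP-ribosylhydrolase (0.52), Txlng (0.50), Rptor, a subunit of the growth kinase complex mTORC1 (0.20), Rffl, a ubiquitin ligase (0.45), and the long noncoding RNA Gm10787 (1.87). Their adjusted p-values ran from 0.0176 for Catsper2 to 0.0495 for Rffl. Gm10787 ranged widely, with 0.236, 4.41 and 14.1 CPM with LXA4, against 1.13, 1.49 and 2.24 CPM with vehicle, and its lowest LXA4 library was replicate 6. Gm26917, which is counted among the structural RNA genes, was called through LXA4 replicate 6 alone: its difference was 3.16 with that library and 0.17 without it (adjusted p = 0.90).

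The genes that fell besides Egr1 and Cldn1 had low or moderate levels. Ddc (ENSMUSG00000020182, chromosome 11, 11,814,101 to 11,898,144) encodes aromatic L-amino acid decarboxylase, with which the proximal tubule makes dopamine. It had 43.8, 51.7 and 63.1 CPM with LXA4, against 64.5, 77.5 and 101 CPM with vehicle, without overlap. On the log2 scale the difference was −0.60 (−0.89 to −0.31, adjusted p = 0.0472), and −0.59 without LXA4 replicate 6 (adjusted p = 0.0725); the call was lost without any 1 of 8 libraries. Of 13 measured genes of renal dopamine synthesis, breakdown and reception, Ddc alone was called. The breakdown enzyme Maoa had −0.40 (adjusted p = 0.303).

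Lrat, which esterifies retinol for storage, had 0.945, 1.77 and 3.13 CPM with LXA4, against 2.96, 4.38 and 5.51 CPM with vehicle (log2 −1.22, −1.80 to −0.64, adjusted p = 0.0472). Only the highest LXA4 library reached the vehicle range. Pcdh18, a protocadherin, had 2.36, 4.89 and 6.89 CPM with LXA4 against 5.61, 8.55 and 11.9 CPM with vehicle (log2 −0.73, adjusted p = 0.0472). Wbp5 stood at −0.56 (adjusted p = 0.0472) and the long noncoding RNA Gm45064 at −1.46 (adjusted p = 0.0386). Without LXA4 replicate 6 these 4 kept their sign, at −1.16, −0.64, −0.55 and −1.42, and none was called.

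Leaving LXA4 replicate 6 out added 13 calls, 11 higher and 2 lower. Nat8f6, of an N-acetyltransferase family expressed in kidney, had 10.9 CPM in replicate 6 and 37.4 to 83.2 CPM in the other LXA4 libraries, against 18.5, 33.4 and 40.1 CPM with vehicle; its log2 difference was 1.12 without replicate 6 (adjusted p = 0.0291) and 0.93 with it (adjusted p = 0.141). Phactr1, which binds actin and protein phosphatase 1, stood at 0.57 without the library (adjusted p = 0.0295), Zhx2, a zinc-finger homeobox repressor, at 0.38 (adjusted p = 0.0291), and Atp2b2, a plasma membrane calcium pump, at 0.51 (adjusted p = 0.0483). Cipc, Fam120b (0.23), Ptpn21 (0.25), Zfp341 (0.41), Plekhd1 (0.33), Phyhip (0.52) and Gm13412 (1.17) were also called higher. Cyp2j8, a cytochrome P450 gene of a family with similar sequences, fell by 1.12 on the log2 scale (adjusted p = 0.0373), and Abca14, a lipid transporter gene, fell by 1.16 (adjusted p = 0.0482).

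Genes of lipoxin synthesis and reception did not pass the test. Of 27 measured genes of eicosanoid synthesis and reception none was called, and Fpr1, Fpr2 and Alox15 were not analysed here. Alox5, 5-lipoxygenase, had the smallest p of the list, with 0, 0.460 and 0.650 CPM with LXA4 against 0.635, 0.803 and 1.74 CPM with vehicle; LXA4 replicate 6 held no count. Its log2 difference was −1.18 (−1.81 to −0.54, adjusted p = 0.0979), and −1.10 without replicate 6 (adjusted p = 0.11). Alox5ap, the protein that presents arachidonate to it, stood at −0.18 (adjusted p = 0.597).

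Fibrosis and injury lists had no called member. Over 43 matrix and fibrosis genes the median was 0.11 with all libraries and −0.09 without LXA4 replicate 6, so its sign rested on that library; 7 were higher and 5 lower at an unadjusted p under 0.05 (9.63% and 6.06% of all genes), and 2 and 2 without it (5.79% and 5.42%). Col1a1, the main chain of collagen I, had 15.7, 23.4 and 353 CPM with LXA4, against 14.1, 22.7 and 30.1 CPM with vehicle, and its difference of 1.69 became −0.05 without replicate 6. Over 26 tubular injury genes the median was 0.01. Of 28 genes of TGF-beta and BMP signalling 6 were higher and 1 lower at an unadjusted p under 0.05 (4 and 1 without LXA4 replicate 6), with a median of 0.02 (0.05). Among the higher ones, Id1, a BMP target, had 0.80 (adjusted p = 0.228; 0.71 without that library) and Smad7, the inhibitory SMAD, had 0.87 with all libraries (adjusted p = 0.0997) and 0.33 without it. The lower one, Grem1, a BMP antagonist, had −1.90 (adjusted p = 0.125) on levels of at most 1.71 CPM with LXA4 and 9.74 CPM with vehicle.

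Inflammation and immune cell lists had no called gene, and their medians differed in direction. Of 24 myeloid markers measured of 29 listed, 5 had lower levels at an unadjusted p under 0.05 (6.06% of all genes), none higher, and the median was −0.16 (−0.23 without LXA4 replicate 6). Lyz2, macrophage lysozyme, had 12.7, 14.4 and 21.1 CPM with LXA4 against 14.2, 26.1 and 36.3 CPM with vehicle (log2 −0.72, adjusted p = 0.175), and Adgre1, which encodes F4/80, had −0.40 (adjusted p = 0.244). The summed level of the 24 markers was 264 to 469 CPM with LXA4 and 303 to 402 CPM with vehicle, so the groups overlapped. The part of myeloid cell number in any result was not tested. Among 28 cytokine and NF-kB genes, 1 was higher and 5 lower at an unadjusted p under 0.05 (9.63% and 6.06% of all genes). Their median was −0.12 (−0.09 without LXA4 replicate 6). Of 34 interferon response genes 24 had a positive difference, against 8085 of 15,726 over all genes, with a median of 0.12 (0.13 without that library). At an unadjusted p under 0.05, 4 were higher and 1 lower, against 9.63% and 6.06% of all genes. Without that library 5 were higher and 1 lower, against 5.79% and 5.42%. The antiviral genes Oas2 and Mx2 had 0.80 (adjusted p = 0.12) and 0.64 (adjusted p = 0.211), and Usp18, which restrains interferon signalling, had 0.53 (adjusted p = 0.212). The 7 measured lymphocyte markers of 20 listed had a median of −0.21, which was −0.09 without LXA4 replicate 6; Jchain, made by plasma cells, had −1.48 (adjusted p = 0.086). Of 8 red cell genes, of 10 listed, all had negative differences, where 8085 of 15,726 genes had positive ones. Their median was −0.45 (−0.31 without that library), and their summed level was 132 to 385 CPM with LXA4 and 285 to 470 CPM with vehicle.

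Metabolic lists differed in direction and none had a called gene. Of 30 NRF2 targets, which defend against oxidants, 9 were lower and none higher at an unadjusted p under 0.05, against 6.06% and 9.63% of all genes, with a median of −0.23. In the fit without LXA4 replicate 6, 8 were lower and 1 higher, against 5.42% and 5.79%, with a median of −0.18. Cbr1, a carbonyl reductase, had 8.03, 15.4 and 23.0 CPM with LXA4 against 13.8, 27.7 and 69.7 CPM with vehicle (log2 −1.17, adjusted p = 0.0979), the high vehicle values being those of replicates 3, 4 and 5. Gsta2 stood at −0.87 (adjusted p = 0.154) and Nqo1 at −0.72 (adjusted p = 0.214). Of 61 nuclear genes of oxidative phosphorylation 16 were lower and 2 higher at an unadjusted p under 0.05 (9 and 0 without LXA4 replicate 6), with a median of −0.14 (−0.16). Cox7c, a subunit of cytochrome oxidase, stood at −0.41 (adjusted p = 0.119). Of 27 genes of cholesterol and fatty acid synthesis 6 were lower and none higher (the same counts without LXA4 replicate 6), with a median of −0.16 (−0.18); Msmo1, a sterol oxidase, had 11.1, 14.3 and 14.7 CPM with LXA4 against 18.9, 22.7 and 27.0 CPM with vehicle, without overlap (log2 −0.74, adjusted p = 0.11), and Insig1 stood at −0.78 (adjusted p = 0.124). Of 27 cell cycle genes 5 were lower and 1 higher, again the same counts without that library, with a median of −0.24 (−0.23). Fatty acid oxidation genes (33) had a median of 0.03 (0.05), and gluconeogenesis genes (23) had one of 0.09 that was 0.04 without LXA4 replicate 6.

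Markers of the cortex's own segments had no called gene. The median was −0.04 over 35 proximal tubule genes, 0.00 over 18 genes of the loop and distal tubule, 0.11 over 18 of the collecting duct, 0.12 over 22 of podocytes and 0.12 over 21 of endothelium. Leaving out LXA4 replicate 6, these medians were 0.02, 0.09, 0.16, 0.05 and 0.08 in the same order, so that of the proximal tubule turned its sign. Markers of tissue outside the cortex were high in single libraries. The 12 urothelial and inner medullary genes, of 15 listed, had a median of 1.37 (1.42 without LXA4 replicate 6; −2.03 for the same genes in nondiabetic mice), and LXA4 replicate 5 held the highest level of Psca (14.8 CPM), Upk3b (8.25 CPM) and Akr1b3 (138 CPM against 15 to 18.2 CPM in the other LXA4 libraries). Their summed level was 263 to 1111 CPM with LXA4 and 747 to 904 CPM with vehicle. The 14 adipose genes, of 15 listed, had a median of 0.83 and a summed level of 184 to 494 CPM with LXA4 and 160 to 547 CPM with vehicle, with Ucp1 of brown fat at 6.48 CPM in LXA4 replicate 2 and at most 0.664 CPM with vehicle. No gene of either list was called, and without LXA4 replicate 5 or 2 the comparison called 88 and 16 genes, as given above; the part of these tissues in the result was not tested. The plot of medians sets the lists side by side.

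**Figure D4:**
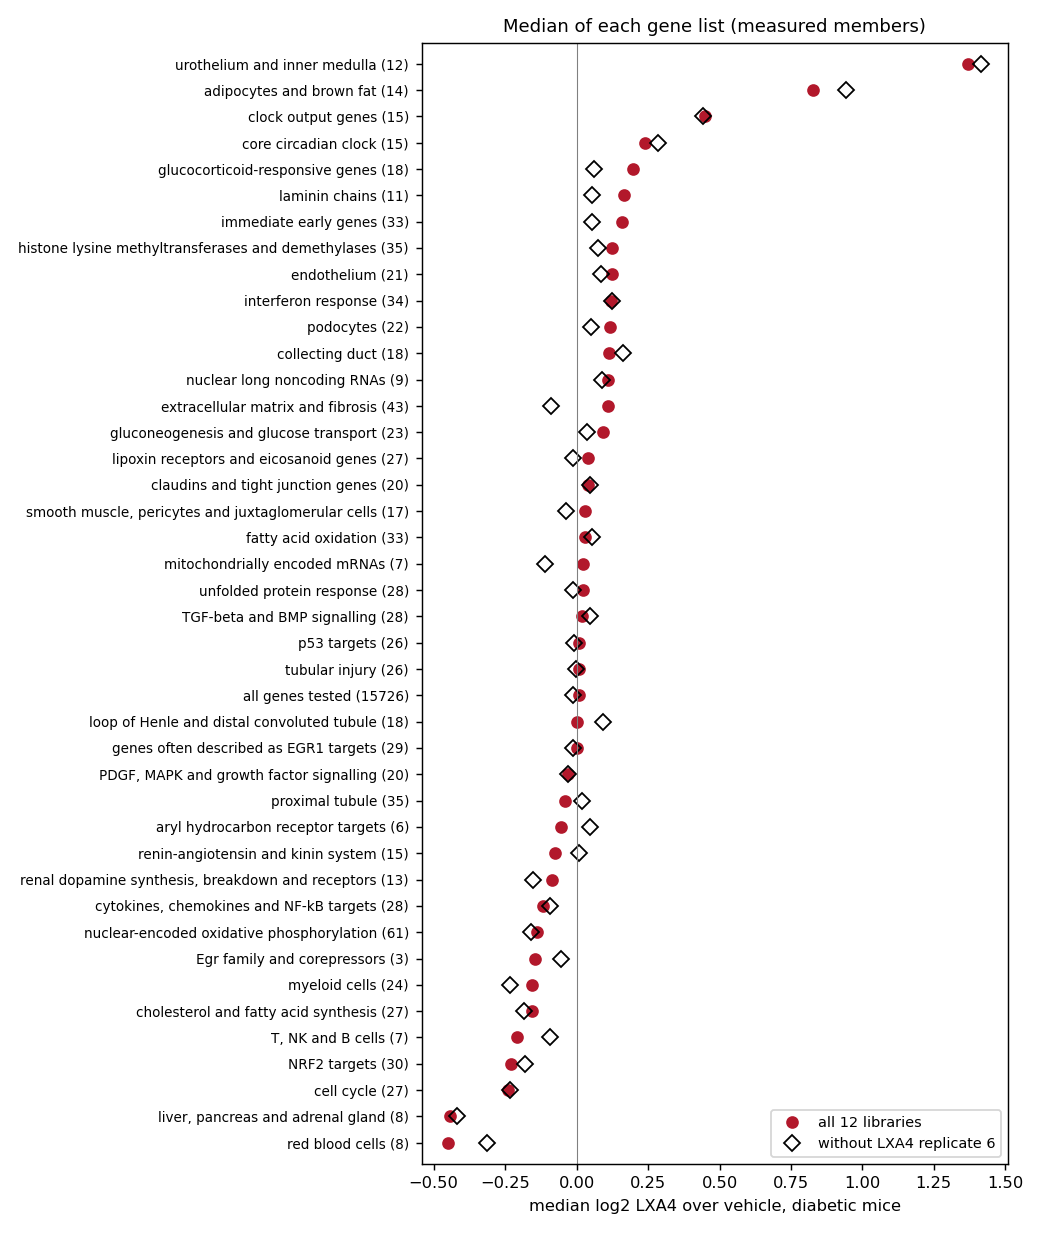
Median log2 difference of LXA4 minus vehicle in diabetic mice over the measured members of each gene list (number in brackets), with all 12 libraries (red circles) and without LXA4 replicate 6 (open diamonds). The list of small and structural RNAs is not drawn. The list of 43 matrix genes is one of several that change sign, with a median of 0.11 with that library and −0.09 without it. The clock lists stay to the right of 0.

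Whether LXA4 acted differently in diabetic and nondiabetic mice was tested as an interaction in the same fit. In nondiabetic mice no gene passed the test (0% of 15,726 by edgeR, 967 genes or 6.15% at an unadjusted p under 0.05, and 3 genes each by DESeq2 and voom). The interaction was called for 39 genes (0.248%), and 21 of these were among the 56. The 56 were chosen by the diabetic difference, which is part of the interaction, and this favours calls among them. Of the 49 genes that rose in diabetic mice, 39 had a negative difference in nondiabetic mice, against 55.0% of all genes. The median nondiabetic difference was −0.11 for the 49 genes, 0.06 for the 7 that fell and −0.02 for all genes. Structural RNA was high in LXA4 replicate 6 (56.9%), on the LXA4 side of the diabetic comparison. It was also high in nondiabetic vehicle replicate 3 (17.7%), on the vehicle side of the nondiabetic comparison. The part of these libraries in the signs was not tested, and values without them are not given here.

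The interaction was called for Per2 of the core clock, for Lamb3 and Cldn1, and for Ddc. Per2 had 1.12 in diabetic and −0.42 in nondiabetic mice (interaction 1.54, adjusted p = 0.0485). Lamb3 had 0.94 in diabetic and −0.51 in nondiabetic mice (interaction 1.44, adjusted p = 0.0191), Cldn1 had −0.78 and 0.29 (interaction −1.07, adjusted p = 0.0323), and Ddc had −0.60 and 0.45 (interaction −1.05, adjusted p = 0.0212). Urothelial and inner medullary markers, measured in the same libraries, also had opposite medians, 1.37 in diabetic and −2.03 in nondiabetic mice, with Psca at 2.41 and −2.85 and Krt5, a basal keratin, at 1.61 and −2.31. Their part in the interaction of Lamb3, an epithelial gene, was not tested. 1600010M07Rik had the largest interaction of the 21, at 1.82 (adjusted p = 0.0191). Egr1 had −0.04 in nondiabetic mice, with a 95% interval of −0.63 to 0.55, and its interaction of −1.39 did not pass (adjusted p = 0.121). Over the core clock list the nondiabetic median was −0.22 and over the output list −0.09, against 0.24 and 0.45 in diabetic mice; Arntl at 1.13 and Dbp at −1.19 were among the nondiabetic extremes.

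The count of interactions moved with nearly every library. Among diabetic libraries it was 67, 63, 69, 8, 76 and 59 without LXA4 replicates 1 to 6 in turn, and 26, 7, 0, 71, 40 and 21 without vehicle replicates 1 to 6. Among nondiabetic libraries it was 13, 7, 10, 6, 30 and 13 without LXA4 replicates 1 to 6, and 41, 9, 24, 5, 106 and 79 without vehicle replicates 1 to 6. Without the pair of libraries rich in structural RNA it was 129, and a fit of these 4 groups alone called 0; in the fit of all groups DESeq2 called 257 and voom 211.

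**Figure D5:**
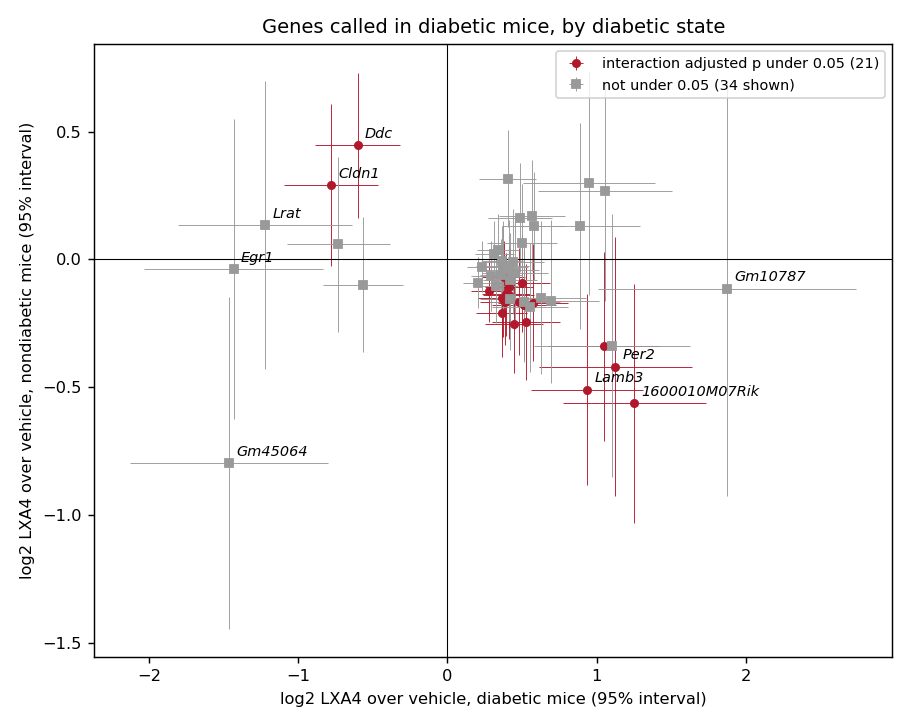
Log2 difference of LXA4 minus vehicle in diabetic (horizontal) and nondiabetic mice (vertical), with 95% intervals, for the genes called in diabetic mice; Gm26917 is left out for its scale. The 21 genes with a called interaction (red circles) lie on opposite sides of 0 in the 2 states, as Per2 at 1.12 and −0.42 does, and Egr1 (grey) lies at −1.43 and −0.04. Choosing genes by both tests favours opposite signs.

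Benzo-LXA4 was given at another dose (1.7 µg/kg against 5 µg/kg) and shares the vehicle libraries, so its values are set beside those of LXA4 without a comparison. In diabetic mice the log2 difference from vehicle was −0.93 for Egr1, 0.43 for Per2, 0.17 for Lonrf3, −0.27 for Cldn1, 0.62 for Lamb3, −0.43 for Ddc and −0.92 for Lrat. With LXA4 the same genes had −1.43, 1.12, 0.95, −0.78, 0.94, −0.60 and −1.22. Diabetes itself, as diabetic minus nondiabetic vehicle mice, also shares the diabetic vehicle libraries, but takes them with the opposite sign. Choosing genes by the LXA4 difference therefore favours opposite signs there, and these are not a separate result. The diabetes difference was 1.04 for Egr1, −0.54 for Per2, 1.12 for Cldn1, −0.41 for Lamb3 and 0.48 for Ddc. Those of Lonrf3 and Lrat are not given here. In mice on Benzo-LXA4, whose libraries enter neither side of the LXA4 comparison, the difference of diabetic minus nondiabetic mice was negative for 20 of the 49 genes that rose, against 51.5% of all genes, and positive for 5 of the 7 that fell, against 48.5%.

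The genes that rose shared features of sequence. Their median exon length was 7027 bases, against 4182.5 bases over the 15,688 genes with a length, and 23 of the 49 were in the longest 5th of genes, from 7336 bases up. Their median GC content was 55.4%, against 49.4% over all genes. Across genes, which are not independent, the log2 difference had a Spearman correlation of 0.04 with exon length and 0.37 with GC content; without LXA4 replicate 6 these were 0.20 and 0.11. Their median level was 68.0 CPM, against 17.3 CPM over all genes, so the small differences called lie in well-counted genes. The 7 genes that fell had a median length of 4484 bases, GC content of 45.5% and level of 6.80 CPM. The part of length and GC content in the calls was not tested.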

How the data were processed

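Raw counts per gene were deposited by the authors for 36 libraries made from 200 ng of cortex RNA after ribosomal RNA depletion, with a directional kit, per the labels' protocols. Reads were converted with bcl2fastq 2.17.1.14, aligned with STAR and counted with featureCounts on GRCm38, per the submitters' processing notes. The sources used here do not name releases of either program, an annotation or a strand setting. The table held 15,730 genes, the lowest with 370 counts in all. Column codes were matched to the labels, and 0 columns were left unmatched. No 2 of the 12 libraries were identical (highest correlation of log CPM 0.9955).

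Differences in counts were tested in edgeR 4.0.16 (R 4.3.3) by its quasi-likelihood test, with TMM factors and its low-count filter, in 1 fit of all 36 libraries in 6 groups. P-values were adjusted by Benjamini-Hochberg over all genes, with a threshold of 0.05, and intervals are 95%. DESeq2 1.42.0 and limma 3.58.1 were alternatives; each was tested on simulated data. CPM are relative to TMM-scaled totals. Coordinates, lengths and GC content come from GENCODE M21 (15,692 genes matched), counted from 1. The 42 gene lists, the comparison and the rule for names were chosen with earlier results of these data known. The rule took 11 genes of the EGR and lipoxin pathways and Apoe, the 40 smallest adjusted p-values, up to 20 genes called without LXA4 replicate 6, and called members and the 4 smallest p-values of each list; the other 16 called genes, Wee1 and members given as examples were added after their values were seen. Apoe, disrupted in all mice, had 2.31, 2.62 and 3.07 CPM with LXA4 as lowest, median and highest, against 1.62, 2.02 and 2.80 CPM with vehicle. Depth enters through the count model, and intervals cover the spread between libraries. A few genes with values in the files are not reported here, though counts and list medians include them.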

Additional observations from a re-analysis of the deposited data

Results flagged for a closer look

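In 14 of 112 groups of 6 libraries (the LXA4 and the vehicle group of each of the 56 genes), 1 library stood apart from the rest by Dixon's test, which flags about 1 group in 20 by chance. In 11 of the 14 that library was LXA4 replicate 6, always as the highest, among them 158 CPM for Dlg5, 83.4 CPM for Ptpn1, 148 CPM for Fam102a, 160 CPM for Pkd1, 108 CPM for Macrod1, 32.6 CPM for Unc5b, 608 CPM for Plekha7, 798,416 CPM for Gm26917, 477 CPM for Kmt2d and 203 CPM for Rffl. For Gm26917 the next LXA4 library had 23,130 CPM. Structural RNA, which includes this gene, took 56.9% of the counts of LXA4 replicate 6. CPM are set against a TMM-scaled total (factor 0.476), well below the raw total of this library, which raises the value further. The other flagged libraries were LXA4 replicate 5 for Adra2b, the lowest at 108 CPM, and vehicle replicate 4 for Txlng, the lowest at 34.0 CPM. Vehicle replicate 1 was also flagged for Plekha7, the highest at 348 CPM. Of the 11 genes high in LXA4 replicate 6, Dlg5 and Ptpn1 were called without it.

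The interaction of LXA4 and diabetes contains the diabetic difference by which the 56 genes were chosen, which favours calls among them. In the edgeR fit it was called in 21 of the 56 genes, against 0.248% of all genes tested. For those given here, the interaction on the log2 scale was 1.54 for Per2, 1.44 for Lamb3, 1.82 for 1600010M07Rik, −1.07 for Cldn1 and −1.05 for Ddc. It was 0.77 for Cbfa2t3, 0.74 for Ngef, 0.69 for Fam102a, 0.64 for Fam169b, 0.59 for Cables1, 0.58 for Epb41l1, 0.55 for Arhgef10 and 0.55 for Pitpnm2. It was 0.53 for Dlg5, 0.53 for Ptpn1, 0.52 for Ctif, 0.52 for Pkd1, 0.45 for Myo10 and 0.40 for Anxa11. All 21 had opposite signs in the diabetic and the nondiabetic comparison. Choosing genes by both the diabetic difference and the interaction favours opposite signs, so this is not a separate result.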

How the results depend on the processing

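Against 56 genes in diabetic mice, 93 were called without both libraries rich in structural RNA, 35 with upper-quartile factors, 221 by DESeq2, 172 by voom and 1 with only these 12 libraries in the fit. Leaving out 1 library gave 0 to 88. RLE factors (55), no filter (56), structural genes left out (59) and a mean of at least 5 CPM (62) stayed within 1.5 times. Without LXA4 replicate 6, DESeq2 called 161 and voom 171, alternatives chosen after seeing the data, as was the block fit without that library given below. In nondiabetic mice DESeq2 and voom called 3 each, and leaving out 1 library gave 0 to 0. Against 39 interactions there were 129 without both structural-RNA libraries, 80 with a mean of at least 5 CPM, 257 by DESeq2, 211 by voom, 0 in the fit of 4 groups and 0 to 106 without 1 library.

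Same-numbered LXA4 and vehicle libraries correlated between −0.096 and 0.133. These low values show no pairing by number but cannot exclude one. With the replicate block 28 genes (27 of the 56) and 9 interactions were called, and 21 genes without LXA4 replicate 6.

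No called gene changed sign under any alternative. Phyhip turned to −0.046 with a mean of at least 5 CPM. Without both libraries and with voom, the Col1a2 log2 difference turned to −0.048 and −0.0084, Col1a1 to −0.052 and −0.030, and Cox6a1 to −0.216 and −0.098; Nab2 turned to −0.056 without both. Leaving out 1 library at a time, the differences ranged between −0.045 and 1.49 for Col1a2, −0.048 and 1.93 for Col1a1, −0.214 and 2.59 for Cox6a1, and −0.054 and 0.154 for Nab2, the lowest being without LXA4 replicate 6. Of the list medians recomputed, 908 stayed within the spread and 16 moved. The cause was not tested. Depth limits genes under about 1 CPM, where LXA4 replicate 6 holds few counts.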
